A study of Mus musculus with 18 samples.

Results

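The genes described here are 9 genes of rod photoreceptors: Nrl, Nr2e3, Samd7, Gnat1, Pde6a, Pde6b, Cnga1, Sag and Rom1. They are given by symbol, and each was measured in a window of the mouse genome that spans the gene and 2 kb on either side. These 9 windows are among 21887 windows of protein-coding genes measured in the same way. The readout was open chromatin, counted as unique transposase fragments in single nuclei of the retina, and RNA of the same genes was read in mouse embryonic fibroblasts.

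In rods, light leads to activation of the G protein transducin. Its alpha subunit (Gnat1) releases the catalytic subunits of the rod phosphodiesterase (Pde6a and Pde6b) from inhibition, cyclic GMP falls, and the cyclic GMP-gated channel formed with Cnga1 closes. Arrestin (Sag) ends the light signal upstream of transducin, and Rom1 is a structural protein of the rim of the outer segment discs. Rod identity is set by the leucine zipper factor Nrl and its target, the nuclear receptor Nr2e3, which together promote rod genes and hold cone genes down, while Samd7 is a photoreceptor protein of a Polycomb complex that helps to keep non-rod genes silent.

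Libraries that read RNA and open chromatin of the same nuclei were made from retina, 1 labelled control and 1 labelled Ikzf1/4, after the transcription factors Ikzf1 and Ikzf4, which act as temporal identity factors in retinal progenitors. The control library carried mCherry in place of the factors, in C57BL/6 mice of the line GLAST-CRE ERT2 ; RosaYFP, in which tamoxifen switches on Cre, and with it a yellow fluorescent reporter, in cells that use the GLAST promoter, mainly Müller glia. The labels of the Ikzf1/4 library repeat its title in place of line, strain and condition, so nothing more of its genotype is known here, and both libraries are labelled with tamoxifen at 14 days, without saying what the days are counted from. The run names in the file headers of both libraries carry 48h instead, so the time point is not settled, and nothing in the labels or headers sets the 2 libraries at different times. In fibroblasts, 3 RNA libraries with the neuronal factors Brn2 and Myt1l were compared with 3 libraries that also had Ikzf1 and Ikzf4, all at 48 h after doxycycline. With 1 nuclei library per group, differences between the libraries had no replicate check, and all intervals given for them are exact 95% intervals that cover counting error only.

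Promoters, which lie around the start of a gene, are shown for the 4 genes in which either of 2 photoreceptor motifs was found. RefSeq promoters (GRCm38.p6, 250 bases before to 50 bases after the start) were matched for 7 of the 9 genes, all but Gnat1 and Pde6a. Capitals mark TAATCC, the core bound by the photoreceptor homeodomain factor CRX, read as GGATTA on the opposite strand, and TGCTGA, a half-site of the kind bound by NRL. The promoters are written 5′ to 3′ on the strand of the gene: Sag at chr1:87803430-87803729 on the plus strand, Samd7 at chr3:30746043-30746342 on the plus strand, Cnga1 at chr5:72642703-72643002 on the minus strand and Pde6b at chr5:108388123-108388422 on the plus strand.
Sag: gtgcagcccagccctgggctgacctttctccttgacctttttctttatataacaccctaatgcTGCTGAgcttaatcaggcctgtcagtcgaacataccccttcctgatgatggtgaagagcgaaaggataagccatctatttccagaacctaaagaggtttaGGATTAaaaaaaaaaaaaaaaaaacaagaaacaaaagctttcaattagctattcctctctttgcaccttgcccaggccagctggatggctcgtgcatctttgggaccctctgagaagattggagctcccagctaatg
Samd7: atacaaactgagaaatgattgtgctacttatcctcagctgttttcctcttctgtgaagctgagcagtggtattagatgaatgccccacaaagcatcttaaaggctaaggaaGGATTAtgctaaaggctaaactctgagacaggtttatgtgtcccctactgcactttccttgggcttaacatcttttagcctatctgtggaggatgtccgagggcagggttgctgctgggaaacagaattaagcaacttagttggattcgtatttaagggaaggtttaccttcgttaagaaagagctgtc
Cnga1: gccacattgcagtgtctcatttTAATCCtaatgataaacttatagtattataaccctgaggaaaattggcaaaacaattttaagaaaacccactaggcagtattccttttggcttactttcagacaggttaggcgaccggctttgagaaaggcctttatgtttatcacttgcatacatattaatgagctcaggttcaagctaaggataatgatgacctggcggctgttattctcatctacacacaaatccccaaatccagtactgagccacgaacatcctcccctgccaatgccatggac
Pde6b: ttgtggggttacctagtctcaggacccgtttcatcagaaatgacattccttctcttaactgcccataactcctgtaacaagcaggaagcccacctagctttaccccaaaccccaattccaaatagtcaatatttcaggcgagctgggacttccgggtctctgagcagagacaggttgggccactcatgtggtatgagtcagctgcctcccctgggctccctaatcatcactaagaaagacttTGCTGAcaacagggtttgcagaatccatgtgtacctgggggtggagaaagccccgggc

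TAATCC was found on either strand in 3 of the 7 promoters, against 7.16% of 27025 promoters of the same length. In Sag it lay at -87 bases from the start, in Samd7 at -139 bases and in Cnga1 at -228 bases. TGCTGA was found in 2 of 7, at -187 bases in Sag and at -8 bases in Pde6b, against 19.1% of all promoters. A core of the kind bound by Ikaros factors, TGGGAA, was found in 1 of 7, in Samd7 at -24 bases, against 25.5% of all promoters. AGGTCA, a half-site of the kind bound by ROR nuclear receptors, was found in 2 of 7, in Cnga1 and Sag, against 16.0%. No 2 matches overlapped, and a match is a description of the letters, not of binding.

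Barcodes with 3000 to 90000 fragments were kept, 1955 in the control library with 14990373 fragments and 745 in the Ikzf1/4 library with 9270660 fragments. The Ikzf1/4 barcodes were deeper, with a median of 10682 fragments against 6248, and the 2 libraries shared 3 barcode sequences. Although the control library is labelled as Müller glia, only 33.7% of its 1888 classed nuclei had the open chromatin of Müller glia, and 19.9% of the 689 in the Ikzf1/4 library. These shares depend on how clusters of nuclei were named. At a coarser clustering resolution of 0.6, a cluster best matched by Müller glia markers, with 263 control and 76 Ikzf1/4 nuclei, was left unnamed.

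Over all barcodes in range, every one of the 9 rod windows held a larger share of fragments in the Ikzf1/4 library than in the control. Summed over the 9 windows, the level was 275 fragments per 1000000 fragments of the library (CPM; 95% interval 267 to 284) in the control against 459 CPM (446 to 473) in the Ikzf1/4 library, so the ratio was 1.67 (1.60 to 1.74). The interval of the ratio lay above 1 for 9 of 9 windows, where 38.3% of the 15918 gene windows with at least 50 fragments in each library did so and 12.6% had an interval below 1. A ratio of 1.5 or more was reached by 5 of 9, against 2.62% of all windows, and the median ratio of all windows was 1.09.

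**Figure D1:**
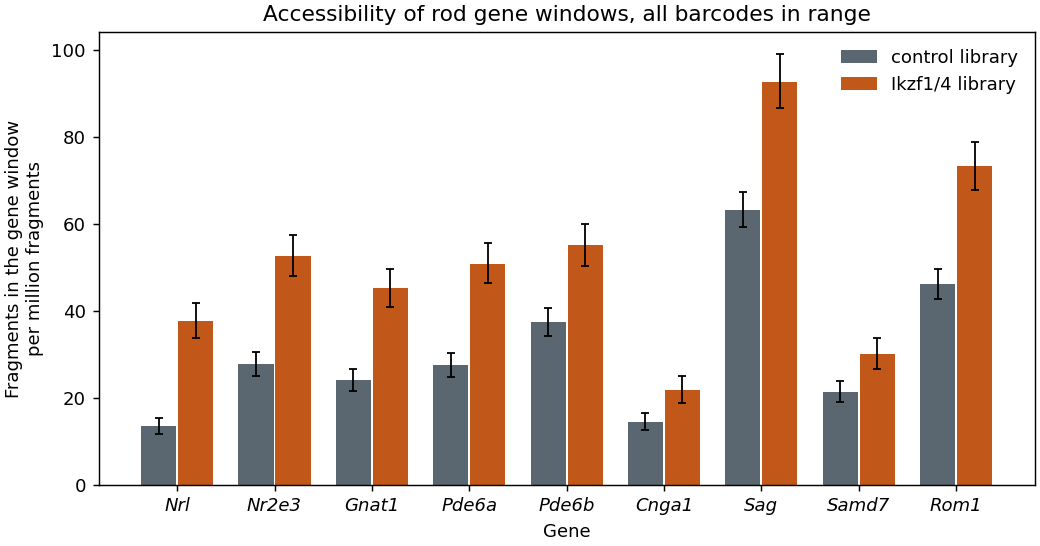
Level of the window of each rod gene in CPM (vertical axis) for all barcodes with 3000 to 90000 fragments, in the control library (grey) and the Ikzf1/4 library (orange); bars are levels and error bars are 95% Poisson intervals. Every Ikzf1/4 bar is above its control bar and the paired intervals do not overlap, from Samd7 at 21.4 and 30.1 CPM to Nrl at 13.5 and 37.6 CPM.

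Among the regulators of rod identity, Nrl (chromosome 14, 55518978 to 55524981 in mm10) had the largest ratio of the 9 over whole windows. Its window held 202 fragments in the control, 13.5 CPM, and 349 in the Ikzf1/4 library, 37.6 CPM, a ratio of 2.79 (2.34 to 3.34). Nr2e3 (chromosome 9, 59942771 to 59960834) had 415 and 488 fragments, 27.7 and 52.6 CPM, and a ratio of 1.90 (1.66 to 2.17). Samd7 (chromosome 3, 30746293 to 30767174) had the smallest ratio, 1.41 (1.19 to 1.66), with 321 and 279 fragments, or 21.4 and 30.1 CPM. The intervals of Nrl and Samd7 did not overlap, so the order at the 2 ends of the group was larger than counting error.

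In the transduction cascade, Gnat1 (chromosome 9, 107674437 to 107679634) had 361 fragments in the control against 419 in the Ikzf1/4 library, 24.1 and 45.2 CPM, with a ratio of 1.88 (1.63 to 2.17). The 2 catalytic phosphodiesterase genes differed in ratio. Pde6a (chromosome 18, 61220474 to 61289750) stood at 27.5 and 50.9 CPM, a ratio of 1.85 (1.62 to 2.12), and Pde6b (chromosome 5, 108388373 to 108431743) at 37.4 and 55.1 CPM, a ratio of 1.48 (1.31 to 1.67), so their intervals overlapped only at the edge. Cnga1, the channel subunit (chromosome 5, 72603696 to 72642752), was at 14.5 and 21.8 CPM, a ratio of 1.498 (1.23 to 1.82). Sag (chromosome 1, 87798143 to 87845158) held the most fragments of the 9, 948 and 860, or 63.2 and 92.8 CPM, with a ratio of 1.47 (1.34 to 1.61). Rom1 (chromosome 19, 8927382 to 8929356) was at 46.1 and 73.2 CPM, a ratio of 1.59 (1.43 to 1.77).

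Window lengths ran from 5.98 kb for Rom1 to 73.3 kb for Pde6a, so levels of different genes are also given per kilobase. Fragments did not spread evenly over a window: in the control 88.6% of those of Rom1 lay within 1 kb of its start. The scale therefore favours short windows, and its order does not rank how open the genes are. On that scale the control order began with Rom1 at 7.71 CPM per kb and Gnat1 at 2.62 CPM per kb, followed by Nrl at 1.35, Nr2e3 at 1.25 and Sag at 1.24 CPM per kb. The lowest were Pde6a at 0.375 and Cnga1 at 0.338 CPM per kb. Nrl led Sag in the Ikzf1/4 library by 3.76 against 1.82 CPM per kb. The windows of 5 genes also cover part of a neighbour: Cpne6 beside Nrl, Sema3f beside Gnat1, Ppargc1b beside Pde6a, Atp5k beside Pde6b, and B3gat3 and Eml3 beside Rom1, and their share in these levels was not tested.

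Within 1 kb of the gene start (for Gnat1 and Pde6a, of either end of the gene), the summed ratio was 1.86 (1.73 to 1.99), and 8 of 9 intervals lay above 1, against 37.4% of the 14924 start regions with at least 10 fragments in each library, of which 3.82% lay below 1. The difference from the whole window was greatest for Pde6b, whose start region had 25 fragments in the control against 59 in the Ikzf1/4 library, so the ratio was 3.82 (2.35 to 6.36). Nr2e3 had 38 and 90 fragments there, a ratio of 3.83 (2.59 to 5.75). The start used for Nr2e3, 59950079, lies inside its gene span and not at its end, as do those of Sag and Nrl. Gnat1 and Pde6a had ratios of 3.08 (2.39 to 4.00) and 3.30 (2.31 to 4.79) at their ends. Nrl, the highest over whole windows, had a lower start ratio than these 4, at 2.37 (1.73 to 3.26). For Sag, Samd7 and Rom1 the start ratios, 1.60, 1.36 and 1.57, were near those of the whole windows, and for Cnga1, with 34 fragments in each library, the interval of 0.98 to 2.68 held 1.

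The nuclei were then grouped by their open chromatin with 15 windows left out, these 9 and the 6 that overlap them. A cluster of 234 nuclei was rod-like by 12 of 12 naming markers, and its leading genes over the other clusters included Rcvrn (recoverin), Gnb1 (the transducin beta subunit), Lrrc2 and Edn2. It held 94 control nuclei, 4.98% of those classed (4.04 to 6.06%), and 140 Ikzf1/4 nuclei, 20.3% (17.4 to 23.5%). The shares depend on the depth limit: with at least 10000 fragments they were 2.55% (1.17 to 4.78%) and 16.0% (12.4 to 20.03%). The labels do not say how nuclei were dissociated or sorted, so a difference in which nuclei were recovered cannot be told apart from one between the retinas.

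All 9 windows had their highest level in the rod-like class, in each library. In the control the summed level was 1476 CPM in rod-like nuclei, 557 CPM in cone-like, 198 CPM in bipolar-like and 118 CPM in Müller glia-like nuclei, and in the Ikzf1/4 library 1470, 491, 213 and 125 CPM. The genes differed in how sharply they marked rods off from cones. Nrl was 7.45 times higher (5.05 to 11.1) in rod-like than in cone-like control nuclei and 6.99 times higher (5.10 to 9.77) in the Ikzf1/4 library. Sag was 1.56 times higher (1.29 to 1.86) and 1.98 times higher (1.69 to 2.33), the smallest difference in the control, while Rom1, at 1.80 (1.49 to 2.18), had the smallest in the Ikzf1/4 library. Against Müller glia-like nuclei the control ratios ran from 7.19 for Pde6a (5.31 to 9.76) to 26.6 for Nrl (16.1 to 45.9).

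**Figure D2:**
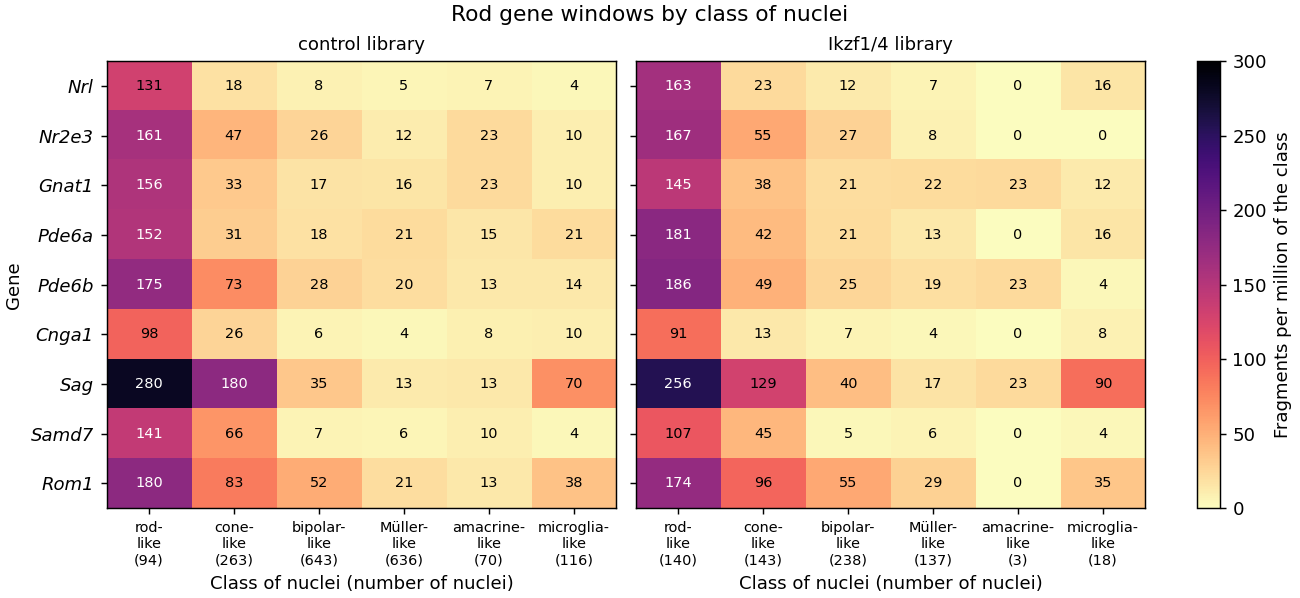
Level in CPM of each class (colour and printed value) for the 9 rod genes (rows) by class of nuclei (columns, with the number of nuclei), in the control library on the left and the Ikzf1/4 library on the right. The rod-like column is highest in every row, Sag is next highest in cone-like nuclei at 180 and 129 CPM, and the amacrine-like class of the Ikzf1/4 library holds only 3 nuclei.

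Inside the rod-like class the 2 libraries had near-equal levels. The summed windows held 900 fragments in the control against 2233 in the Ikzf1/4 library, 1476 and 1470 CPM, a ratio of 0.996 (0.921 to 1.08). No member had an interval above 1, against 6.34% of 11915 windows, and 1 of 9 had an interval below 1, against 4.82%. That 1 was Samd7, at 141 CPM in the control against 107 CPM in the Ikzf1/4 library, so the ratio was 0.761 (0.582 to 0.9998), at the edge of its interval, and within 1 kb of its start the interval, 0.473 to 1.18, held 1. Nrl was at 131 and 163 CPM, a ratio of 1.24 (0.963 to 1.62), Pde6a at 152 and 181 CPM, a ratio of 1.19 (0.935 to 1.52), and the other 6 had ratios from 0.913 for Sag to 1.06 for Pde6b. The 12 rod markers used to name the class, none of them a member, had a summed ratio of 0.976 (0.919 to 1.04) in the same nuclei. The windows of these markers were not left out of the clustering, so their levels helped to define the class and are no separate check. The 9 windows were left out, but other rod gene windows with similar patterns over the classes were not. Near-equal levels of the 9 within the class are therefore not independent of how it was defined. Limited to nuclei with at least 10000 fragments, which left 9 control and 61 Ikzf1/4 rod-like nuclei, the summed ratio was 1.31 (1.09 to 1.58), and most of the control nuclei of the class lie below that depth.

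When the levels of all classes in the Ikzf1/4 library were weighted by the class shares of fragments in the control, the summed level was 285 CPM against 286 CPM in the control, a ratio of 0.997 (0.948 to 1.05). This weighted ratio rests on the same classes and shares that limit. Outside the rod-like class the unweighted summed ratio was 1.19 (1.12 to 1.26), from 233 to 277 CPM, and 5 of 9 intervals lay above 1, against 33% of 15279 windows, and none below, against 10.1%. The 5 were Nrl at 1.62 (1.23 to 2.13), Nr2e3 at 1.37, Gnat1 at 1.36, Rom1 at 1.38 and Sag at 1.14 (1.01 to 1.28). Cone-like nuclei, the class with the next highest level of these genes, made up 13.9% of classed control nuclei and 20.8% of those in the Ikzf1/4 library.

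**Figure D3:**
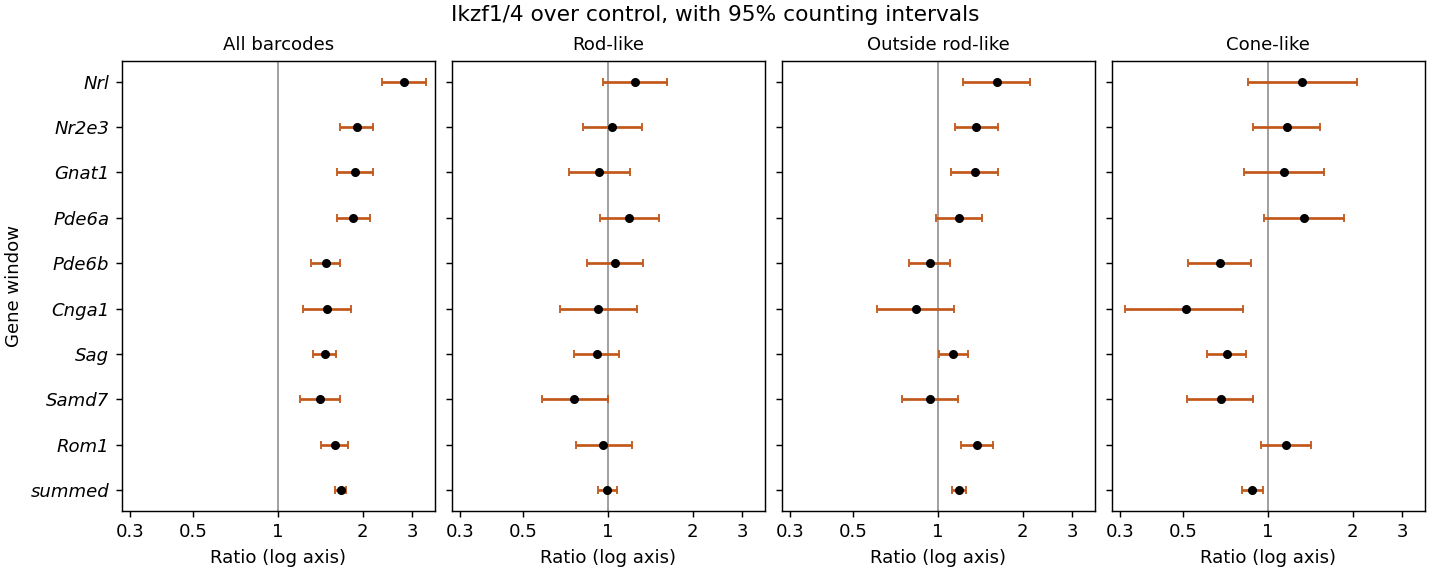
Ratio of Ikzf1/4 to control levels (horizontal axis, logarithmic) for each rod gene window and for the 9 summed, in all barcodes, rod-like nuclei, all classed nuclei outside the rod-like class, and cone-like nuclei; points are ratios, lines are exact 95% counting intervals and the grey line marks a ratio of 1. All points are to the right of 1 in the first panel, the summed ratio is 0.996 in rod-like nuclei, and Pde6b, Cnga1, Sag and Samd7 are to the left of 1 in cone-like nuclei.

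In cone-like nuclei, 263 in the control against 143 in the Ikzf1/4 library, the 9 rod genes did not move together. The interval lay below 1 for 4 of 9, against 5.41% of 15429 windows, and above 1 for none, against 11.1%. Cnga1 was at 26.2 CPM in the control against 13.4 CPM in the Ikzf1/4 library, so the ratio was 0.512 (0.313 to 0.818). Pde6b was at 72.5 and 49.2 CPM, a ratio of 0.678 (0.523 to 0.874), Samd7 at 65.7 and 44.7 CPM, a ratio of 0.681 (0.519 to 0.889), and Sag at 180 and 129 CPM, a ratio of 0.716 (0.611 to 0.838). The identity regulators Nrl and Nr2e3 were at 1.33 (0.854 to 2.07) and 1.17 (0.888 to 1.54), with Gnat1, Pde6a and Rom1 between 1.14 and 1.35, and all these intervals held 1. Summed, the ratio was 0.882 (0.811 to 0.959). Within 1 kb of the start the summed interval held 1, at 0.916 (0.801 to 1.05), as did those of Pde6b and Cnga1. Sag and Samd7 stayed below 1 there, at 0.764 (0.608 to 0.956) and 0.527 (0.333 to 0.818), and Nr2e3 lay above, at 5.21 (1.08 to 49.5). The interval of Nr2e3 is wide because few fragments lay there, so its size is poorly fixed. The share of all start regions with such intervals was not taken within this class. The 10 cone naming markers had a summed ratio of 0.737 (0.694 to 0.783) in these nuclei and the 12 rod naming markers 0.892 (0.838 to 0.9502), and their part in the result was not tested. At the finer clustering resolution of 1.5, cone-like nuclei formed a cluster of 253 control and 31 Ikzf1/4 nuclei and one of 11 and 112, so different clusters hold most of it in the 2 libraries.

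In bipolar-like nuclei, 643 and 238, all 9 intervals held 1 and the summed ratio was 1.08 (0.967 to 1.20), where 16.3% of 16517 windows had an interval above 1 and 6.51% below. Within 1 kb of the start the summed ratio of bipolar-like nuclei was 1.22 (1.03 to 1.45) and that of Nr2e3 5.06 (1.59 to 21.1), both above 1. The interval of Nr2e3 is wide because its start region held few fragments in these nuclei, so its size is poorly fixed. The share of all start regions with such an interval was not taken within this class. Over all barcodes in range the median ratio of start regions was 1.15. In Müller glia-like nuclei, 636 and 137, the summed ratio was 1.06 (0.889 to 1.26), and the intervals of all 7 windows with enough fragments held 1, against 14% of 14856 windows above it and 5.97% below. Among bipolar-like nuclei the clusters were unequal, since 1 cluster held 227 control and 7 Ikzf1/4 nuclei. The 10 bipolar naming markers had a summed ratio of 1.83 (1.75 to 1.91) in this class, with 6 intervals above 1 and 1 below. The bipolar-like nuclei of the 2 libraries were thus not alike, and the part of this in the result was not tested.

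Fragments within the windows were concentrated in a few stretches. In bins of 500 bases, counted by fragment midpoints per 1000000 fragments of the class (midpoint CPM), bins were ranked over both libraries together, and the deeper Ikzf1/4 library supplies most of the rod-like fragments. So ranked, the highest rod-like bin of Nrl was inside the gene, at chr14:55520978-55521477, 3.02 kb from the start. It held 31.2 midpoint CPM in control rod-like nuclei and 54.0 in the Ikzf1/4 library, so the ratio was 1.73 (1.04 to 3.02). In the control alone the bin at -0.975 kb held as many midpoints, 19, and its ratio was 0.655 (0.358 to 1.23). The third bin, at 0.025 kb, had a ratio of 0.774 (0.392 to 1.60). Within 1 kb of the start the rod-like ratio of Nrl was 0.773 (0.524 to 1.16). Over both libraries the highest bin, at 3.02 kb, held 47.4 in rod-like nuclei, 6.91 in cone-like and 1.28 in bipolar-like nuclei. The highest bin of Nr2e3 was at chr9:59952771-59953270, with 50.8 and 38.2. It lay -2.94 kb from the start used, but inside the gene span. It was also the highest bin of that window in cone-like nuclei, with 17.0 against 41.8 in rod-like nuclei. Samd7 had its highest bin at chr3:30748293-30748792, 2.25 kb from the start, with 62.3 in the control against 38.8 in the Ikzf1/4 library, so the ratio was 0.623 (0.408 to 0.963).

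Of the cascade genes, Gnat1 had its highest rod-like bin at chr9:107679437-107679936, at the upper end of the gene, with 59.0 and 52.0 midpoint CPM, and only 2.07 in cone-like nuclei against 54.0 in rod-like nuclei. The highest bin of Pde6a, chr18:61219974-61220473, lay just outside the lower end of the gene, with 29.5 and 28.3. Pde6b was highest at chr5:108430873-108431372, 42.7 kb from its start, with 19.7 and 23.7, whereas its bin at chr5:108421873-108422372 held 10.8 in cone-like and 2.35 in rod-like nuclei. In the control alone the next bin of Pde6b, 43.2 kb from the start, was higher, with 23.0. Cnga1 was highest over both libraries at chr5:72608196-72608695, 34.3 kb from the start, with 13.1 and 22.4, a ratio of 1.71 (0.775 to 4.27). In control rod-like nuclei alone the bins of Cnga1 at -1.19 kb and -0.193 kb were higher, with 18.0 and 16.4, so its highest stretch differed between the libraries, on 11 midpoints or fewer in the control.

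Sag and Rom1 were highest in the 2 bins beside the start, in each library. Sag held 67.2 and 56.6 midpoint CPM in the bin just after the start and 62.3 and 57.9 in the bin before it, and the promoter printed above spans parts of both. The same bins were the highest of Sag in cone-like nuclei, with 40.3 and 31.8, and in bipolar-like nuclei, with 11.2 and 7.38. Rom1 held 72.2 and 69.8 just before the start and 78.7 and 63.8 just after it, and in the bin before it also 25.3 in bipolar-like and 26.5 in microglia-like nuclei. The Rom1 window also covers part of B3gat3 and Eml3, and their part in these bins was not tested. The window of Sag had a further stretch that was open in microglia-like nuclei, at chr1:87828143-87828642, with 23.2 midpoint CPM there against 0.939 in rod-like nuclei, and the microglia-like level of the whole window was 70.0 CPM in the control against 90.3 CPM in the Ikzf1/4 library.

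**Figure D4:**
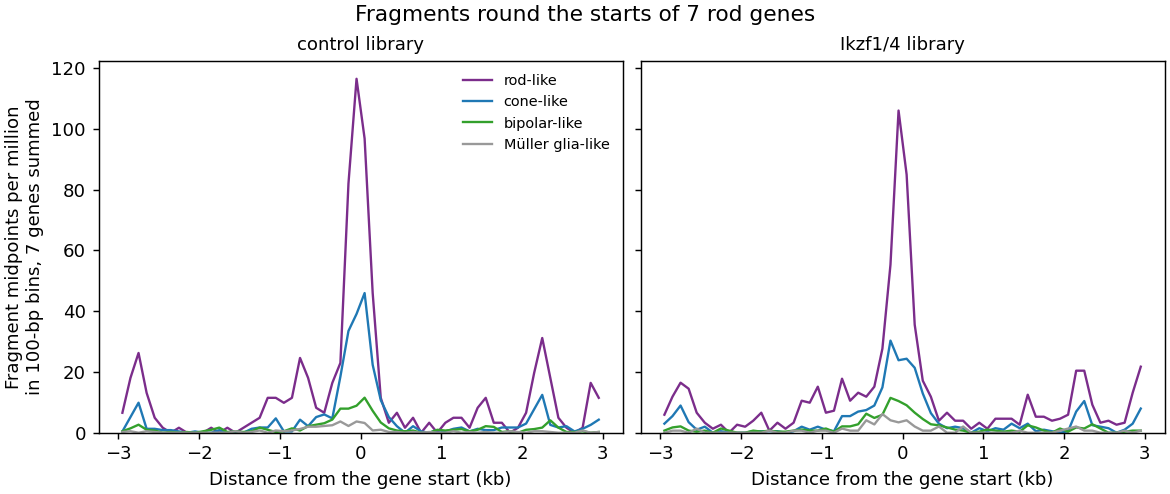
Midpoint CPM in 100-base bins (vertical axis) by distance from the gene start (horizontal axis, kb, negative before the start), summed over the 7 rod genes with a known start, for rod-like, cone-like, bipolar-like and Müller glia-like nuclei in each library. The rod-like peak reaches 116 in the control against 106 in the Ikzf1/4 library in the bin centred at -50 bases. The highest cone-like bins differ in place, with 45.9 at 50 bases in the control and 30.3 at -150 bases in the Ikzf1/4 library.

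Around the starts of the 7 genes, 54.3% (49.6 to 58.9%) of the rod-like midpoints within 3 kb lay within 500 bases of the start in the control, and 51.4% (48.4 to 54.4%) in the Ikzf1/4 library. In cone-like nuclei the shares were 65.9% (62.1 to 69.5%) and 59.2% (54.8 to 63.4%). Fragments under 150 bases, which come from stretches free of nucleosomes, made up 68.6% (65.4 to 71.6%) of the rod-like fragments in the 9 windows in the control and 56.7% (54.6 to 58.8%) in the Ikzf1/4 library. The same shares over all rod-like fragments were 65.9% and 55.8%, and over the fragments of all classed nuclei 62.2% and 51.9%.

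To compare nuclei of different depth, each was thinned to 3000 fragments. At that depth 97.9% (92.5 to 99.7%) of rod-like nuclei in the control and 97.1% (92.8 to 99.2%) in the Ikzf1/4 library had a fragment in at least 1 of the 9 windows, against 98.9% and 99.3% without thinning. The same share was 84.4% and 77.6% in cone-like nuclei and 26.6% and 21.9% in Müller glia-like nuclei, which are not known for using these genes and whose median depth was 5424 and 8076 fragments, against 5526 and 9524 in rod-like nuclei. Other classes had higher shares than Müller glia-like nuclei. Bipolar-like nuclei were at 43.5% and 44.1%. Microglia-like nuclei, the background planned for this share, were at 46.6% of 116 and 33.3% of 18 nuclei. A rod-like nucleus had fragments in 3.40 ± 1.55 of the 9 windows in the control (SD over 94 nuclei) and 3.34 ± 1.53 in the Ikzf1/4 library (SD over 140 nuclei), and no more than 7 and 8. Cone-like nuclei averaged 1.53 and 1.301 and Müller glia-like nuclei 0.307 and 0.226. At least 3 of the 9 were seen in 73.4% (63.3 to 82.0%) and 70.7% (62.4 to 78.1%) of rod-like nuclei, and in 17.1% (12.8 to 22.2%) and 11.2% (6.53 to 17.5%) of cone-like nuclei.

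Single genes were seen in fewer nuclei. Sag had a fragment in 57.4% (46.8 to 67.6%) of control and 47.1% (38.7 to 55.8%) of Ikzf1/4 rod-like nuclei, and in 3.30% and 1.46% of Müller glia-like nuclei. In cone-like nuclei it had one in 46.0% (39.9 to 52.2%) and 33.6% (25.9 to 41.9%), and in microglia-like nuclei in 24.1% and 16.7%. In rod-like nuclei the other genes given were lower or similar. Pde6b was seen in 37.2% (27.5 to 47.8%) and 47.9% (39.3 to 56.5%), Nrl in 37.2% and 39.3%, and Cnga1, the lowest, in 28.7% (19.9 to 39.0%) and 21.4% (14.9 to 29.2%). For each of these 4 genes the intervals of the 2 libraries overlapped.

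**Figure D5:**
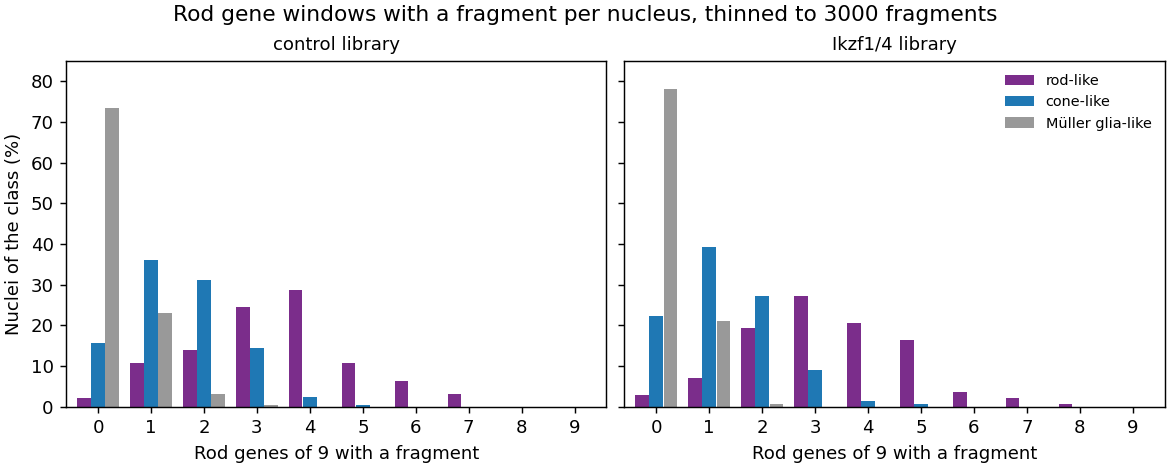
Share of nuclei (vertical axis, percent of the class) by how many of the 9 rod gene windows held a fragment (horizontal axis) after each nucleus was thinned to 3000 fragments, for rod-like, cone-like and Müller glia-like nuclei in each library. Rod-like nuclei centre on 3 windows in both libraries and reach 7 and 8, while 73.4% and 78.1% of Müller glia-like nuclei have none.

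Across 10 units, each a class of at least 50 nuclei in 1 library, the genes whose level was most like the summed 9 were Ccdc126 with a Pearson r of 0.989, Hadha with 0.988, Rpgrip1 with 0.987, Golga7 with 0.987 and Pole3 with 0.985, among 14762 windows on the log2(CPM + 1) scale. The members themselves ran from 0.914 for Gnat1 to 0.972 for Pde6b. Among their 36 pairs the most alike were Nrl and Gnat1, with 0.982, and the least alike Gnat1 and Sag, with 0.738. These are descriptions, since the units of 1 library share its depth and preparation.

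The other genes of the rod pathway, a list of 37, were read in the same windows. Over all barcodes 33 of 37 had an interval above 1, against 38.3% of all windows, and none below, against 12.6%. A ratio of 1.5 was reached by 19, against 2.62% of all windows, and the median was 1.51, against 1.09. Among the highest were Samd11, a partner of Samd7 in its Polycomb complex, at 2.06 (1.73 to 2.45), and Rcvrn at 2.04 (1.70 to 2.45). The lowest were Rorb, a nuclear receptor needed for rod fate, at 1.004 (0.936 to 1.08), Rp1, an axonemal protein of the outer segment, at 1.02 (0.920 to 1.13), and Cngb1, the partner subunit of Cnga1, at 1.11 (0.993 to 1.24). Within rod-like nuclei 36 of 37 intervals held 1, where 6.34% of all windows had an interval above 1 and 4.82% below. The median ratio there was 1.03, as over all windows, and the exception was Grk1, a photoreceptor kinase, at 0.678 (0.536 to 0.861), named here after its value was seen. The 37 windows were not left out of the clustering, so near-equal levels within the class are no separate check. In cone-like nuclei 4 of 37 lay above 1, against 11.1% of all windows, and 9 below, against 5.41%.

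Of the cone counterparts, 9 autosomal genes, 2 had an interval above 1 over all barcodes, against 38.3% of all windows, and 3 below, against 12.6%. Their median ratio was 0.924, against 1.09 for all windows. The cone opsin Opn1sw was lowest, with 172 fragments in the control against 61 in the Ikzf1/4 library, so the ratio was 0.573 (0.421 to 0.772), followed by the cone phosphodiesterase inhibitor Pde6h at 0.770 (0.593 to 0.994) and the cone channel subunit Cngb3 at 0.789 (0.704 to 0.884). The highest were the cone phosphodiesterase Pde6c at 1.32, the thyroid hormone receptor Thrb at 1.10 and the cone transducin gamma subunit Gngt2 at 0.977. On chromosome X, the cone arrestin Arr3 stood at 0.812 and the cone opsin Opn1mw at 0.779.

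In fibroblasts the RNA libraries held 34966344 to 44270426 estimated reads. By DESeq2 in the authors' deposited table, 0 of the 9 genes passed an adjusted p of 0.05, which 30.6% of the 16757 genes that have one passed. An unadjusted p under 0.05 by DESeq2 was given there for 0 of the 9 and for 6451 of all 35734 genes. That total includes 11017 genes listed at 0. Of the 9, 5 had an adjusted p in the authors' deposited table. In the authors' deposited table Rom1 had the highest mean normalised count, 361, and a log2 fold change of -0.22 with an SE of 0.14 (adjusted p = 0.25, DESeq2). For Sag the authors' deposited table gives a mean of 82.0 and a log2 fold change of 0.35 with an SE of 0.21 (adjusted p = 0.21, DESeq2). In the authors' deposited table Nrl was at a mean of 24.7 and -0.14, Pde6b at 14.5 and 0.37, and Gnat1 at 12.5 and 0.26, with adjusted p = 0.71, 0.19 and 0.41 by DESeq2. In the authors' deposited table Pde6a had a mean of 1.45, Cnga1 of 0.852 and Samd7 of 0.319, all without an adjusted p, and Nr2e3 was listed at 0. In such bulk libraries fewer cells that use a gene and less RNA per cell cannot be told apart.

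Of the 37 rod pathway genes, 26 had an adjusted p and 3 passed in the authors' deposited table, against 30.6% of all genes with one. In the authors' deposited table Rorb rose by a log2 fold change of 0.46 (adjusted p = 0.00089, DESeq2), while the G protein beta subunit genes Gnb1, at -0.16 (adjusted p = 0.0018), and Gnb5, at -0.22 (adjusted p = 0.016), fell. Of 11 cone counterparts 8 had an adjusted p in the authors' deposited table, and 1 passed there, against the same 30.6%. This was Opn1sw, which in the authors' deposited table fell with a log2 fold change of -0.50 (adjusted p = 0.042, DESeq2). Its mean normalised count over the libraries of both groups was 13.0.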

How the data were processed

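The labels' protocols and file headers give the processing. Unique fragments were made by the authors with cellranger-arc 2.0.1 against mm10, per the file headers, and each deposited line carries a count of its read pairs. Fragments were counted here in gene windows of the RefSeq genes of GRCm38.p6 (2 kb flanks) over barcodes with 3000 to 90000 fragments, and given per 1000000 fragments (CPM). Nuclei with at least 4-fold enrichment at gene ends were clustered (20 components, 15 neighbours, Leiden resolution 1, leidenalg 0.10.2) without the 9 windows, and clusters were named from marker lists. Doublets were limited by the upper bound of 90000 fragments alone, with no caller. Ratios have exact conditional binomial intervals (scipy 1.17.1), levels Poisson and shares Clopper-Pearson intervals, at 95%, for counting error only, and the method was tested on simulated data. PCR copies were already removed in the deposited fragments.

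In fibroblasts the gene values are those of the authors' deposited table, a comparison with DESeq2 per the labels: the mean normalised signal, log2 fold change, its Wald score and p-values. Its fold changes may be shrunk towards 0. Estimated counts of transcripts, made by the authors with Salmon per the labels, served only for library totals, since no file used here pairs transcripts with genes. Nothing in the sources used here says whether the 3 libraries of a group came from separate cultures, so p-values may measure technical spread. Peak lists were not used, because mm9 and mm10 are both named for them.

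The members and lists were chosen with earlier results of these data known. Genes named beside the members are, per list, the 3 highest and 3 lowest ratios with at least 50 fragments in both libraries, every gene called in the fibroblast table and the 5 windows most like the members; 1 gene that this rule names is not reported here. Grk1 and the leading genes of the rod-like cluster are named outside this rule. Alternatives covered the window, the denominator, depth, thinning, clustering and the p threshold.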

Additional observations from a re-analysis of the deposited data

Results flagged for a closer look

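Barcodes at both ends outside the range used for the comparisons also held fragments in the 9 rod windows at a higher level in the Ikzf1/4 library than in the control. In the 322136 Ikzf1/4 barcodes with under 1000 fragments the summed level was 170 CPM (163 to 177), against 148 CPM (144 to 152) in 448161 control barcodes, a ratio of 1.15 (1.10 to 1.21). In the 17 Ikzf1/4 barcodes with over 90000 fragments it was 172 CPM (161 to 183), against 153 CPM (139 to 167) in 9 control barcodes, a ratio of 1.12 (1.004 to 1.26). Between these, in barcodes with 1000 to 2999 fragments, the levels were 194 and 187 CPM and the interval of the ratio, 0.867 to 1.24, held 1. Over all gene windows the median ratio was 1.09 in barcodes of the range used. No such median was taken in the barcodes outside it, so whether their ratios are particular to the rod windows was not tested.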

How the results depend on the processing

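The summed ratio over all barcodes stayed above 1 under every alternative run, between 1.56 and 1.86. It was 1.86 within 1 kb of the start, 1.56 relative to the fragments in gene windows and 1.75 as a mean of per-barcode CPM, and between 1.61 and 1.73 with any 1 gene left out. Of 72 alternative values for single genes all were above 1, and 64 lay within the main interval. With at least 10000 fragments the summed ratio in rod-like nuclei was 1.31, the ratio with control class weights 1.07, and the rod-like shares 2.55% and 16.0%. The share of Ikzf1/4 rod-like nuclei with a fragment in any of the 9 windows was 99.3% without thinning. Leaving the 9 windows in the clustering, or resolutions of 0.6 and 1.5, kept the ratios in rod-like nuclei and with control weights within 0.994 to 0.999. No member was called in the fibroblast table at adjusted p of 0.01 or 0.1 or at a mean of at least 10. Depth limits single genes: 94 control rod-like nuclei held 60 fragments for Cnga1. No paired analysis was possible because each nuclei group is 1 library and the fibroblast values come from the authors' comparison.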
